A study of Homo sapiens with 8 samples.

Results

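The 220 sgRNAs described here target the 22 genes of the SWI/SNF chromatin remodelling complexes that were looked for by symbol in a pooled knockout screen, 10 sgRNAs for each gene, out of 7855 sgRNAs in all, 7775 of them against 779 genes and 80 non-targeting. All 22 genes were found, and no sgRNA was dropped for low counts. By role they comprised 3 ARID subunits (ARID1A, ARID1B and ARID2), 2 ATPases (SMARCA2 and SMARCA4), 7 core subunits (SMARCB1, SMARCC1, SMARCC2, SMARCD1, SMARCD2, SMARCD3 and SMARCE1), 3 DPF-family subunits (DPF1, DPF2 and DPF3), 3 subunits found only in PBAF besides ARID2 (PHF10, PBRM1 and BRD7) and 4 others (ACTL6A, ACTL6B, BRD9 and SS18L1).

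The screen was run in T1-160, a Taxol-resistant derivative of the human triple-negative breast cancer line SUM159PT that expressed Cas9 and was infected with EPIKOL, a lentiviral sgRNA library against chromatin regulators. In 3 libraries the cells were grown in 160 nM Taxol, a drug that stabilises microtubules, and in 3 libraries in DMSO, its vehicle, each for 16 population doublings. In 2 libraries, AP 1 and AP 3, the cells were collected after 4 days of puromycin selection in the presence of verapamil, before the cultures were divided. All groups thus shared the resistant background, Cas9, the sgRNA library and the puromycin selection with verapamil. By the labels DMSO cells differed from Taxol cells only in the drug. Loss of the targeted proteins was not measured. The labels do not say whether replicates came from separate infections, so the p-values measure only the spread between these libraries, which may be technical.

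SWI/SNF complexes use the energy of ATP to slide or evict nucleosomes and so open promoters and enhancers. They are built around an ATPase, either SMARCA4 or SMARCA2, with core subunits that are not all present in every form. Canonical BAF carries ARID1A or ARID1B with a DPF protein. PBAF carries ARID2, PBRM1, BRD7 and PHF10, and a non-canonical form carries BRD9. Several subunits, ARID1A, PBRM1, SMARCA4 and SMARCB1 among them, are tumour suppressors in some cancers. In a pooled screen, an sgRNA that slows growth becomes rarer and one that speeds it becomes more frequent, so the abundance of an sgRNA in genomic DNA is the readout.

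Values below are log2(normalized count + 1), which makes changes of rare sgRNAs look smaller, averaged over the 10 sgRNAs of a gene, and a fold change is a difference of group means on that scale. The deposited values corresponded to 2045984 to 11771419 reads in Taxol libraries, 3831518 to 9893049 in DMSO libraries and 4348209 to 7682090 in AP libraries, with a median of 142 to 735 reads for the sgRNAs of the 22 genes and at least 7 in every library. The Taxol libraries stood apart: their 10 most abundant sgRNAs took 6.23% to 10.6% of all normalized counts, against 2.36% to 2.8% in DMSO and 1.53% to 2.73% in AP libraries. The 22 genes, with 2.8% of the sgRNAs, held 2.1% to 2.81% of the counts of Taxol libraries, 2.5% to 2.56% of DMSO and 2.38% to 2.47% of AP libraries. Each comparison has a table of its own scale, so levels are set side by side only within a comparison. The median log2 fold change of non-targeting sgRNAs lay above that of all genes in each comparison. The difference was 0.08 in Taxol against DMSO, 0.28 in DMSO against AP and 0.49 in Taxol against AP.

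Before treatment the 22 genes differed in abundance. In AP 1 and AP 3, on the scale of the comparison with DMSO, SMARCB1, a core subunit lost in rhabdoid tumours, was lowest, at 7.34 and 7.89, and 1.16% of all genes lay below its mean. BRD7 followed at 8.05 and 8.12, and DPF2, the DPF protein of most dividing cells, at 8.07 and 8.20. Both SMARCB1 values lay below both BRD7 values, whereas BRD7 and DPF2 overlapped. ACTL6A, an actin-related subunit, and SMARCC1, a scaffold subunit, came next with 8.24 and 8.21 and 8.06 and 8.47, and 8.47% and 8.99% of genes lay below them. At the other end stood PHF10 at 9.71 and 9.42, SMARCA2 at 9.49 and 9.57 and ARID1A at 9.49 and 9.53, which overlapped one another. The median of all 779 genes was 9.04. The composition of the virus pool was not analysed here, so these levels describe the starting point, and a loss of cells before it was not tested.

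DMSO cells were compared with AP cells to see which sgRNAs were lost or gained during 16 doublings without drug. Of the 22 genes, ARID1A alone changed by limma on gene means, with an adjusted p under 0.05 over all 779 genes: its sgRNAs rose, where 0.77% of all genes were called higher and 1.41% lower. At an unadjusted p under 0.05, 3 of the 22 were higher (ARID1A, ARID1B and SMARCA2), against 12.5% of all genes, and 1 was lower (ACTL6A), against 8.73%. Robust rank aggregation (RRA), which asks whether the sgRNAs of a gene crowd at one end of the ranking, called 0 of the 22 at an adjusted p under 0.05 (2.05% of all genes depleted and 0.128% enriched), and at an unadjusted p it gave ARID2 and ACTL6A as depleted (background 11.8%) and ARID1A and ARID1B as enriched (background 8.09%). The shares of SWI/SNF genes past these thresholds, 13.6% and 4.55% by limma and 9.09% in each direction by RRA, were close to or below those of all genes. Over all 779 genes limma called 6 higher and 11 lower, and 0 higher and 16 lower with each library centred on the non-targeting sgRNAs.

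ARID1A, the DNA-binding subunit of BAF most often mutated in cancer, stood at 10.40, 10.24 and 10.55 in DMSO 1 to 3, against 9.49 and 9.53 in AP 1 and AP 3. Every DMSO library lay above both AP libraries, as in 29.3% of all genes, and the spread within each group was small beside the gap. The log2 fold change was 0.89, SE 0.21, SD between libraries 0.12, adjusted p = 0.0292 by limma, with a 95% interval of 0.44 to 1.33, which is 1.85-fold. All 10 ARID1A sgRNAs were higher in DMSO than in AP cells, against 56.5% of all targeting sgRNAs. Their log2 fold changes were 0.14 to 1.75. The RRA enrichment p was 1.7e-04, adjusted p = 0.0679. The call was lost with each library centred on the non-targeting sgRNAs (0.58, limma adjusted p = 0.527), with the median over sgRNAs (0.91, 0.144) and without the most abundant sgRNA of each gene (0.79, 0.058). It was lost too without DMSO 1 (adjusted p = 0.112), DMSO 3 (0.0959), AP 1 (0.877) or AP 3 (0.305) and held without DMSO 2 (0.0115), while the fold change stayed between 0.81 and 0.96.

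Among single ARID1A sgRNAs, epikol_v2_323 and epikol_v2_329 were named for their unadjusted limma p in this comparison, so separation of their groups adds no support. The sgRNA epikol_v2_323 had 4063, 4868 and 3622 normalized counts in DMSO libraries, against 953 and 1603 in AP libraries. Its lowest DMSO value was above its highest AP value (1.75, SE 0.52, unadjusted p = 0.00354, adjusted p = 0.727 by limma over all sgRNAs). For epikol_v2_329 the counts were 2875, 2916 and 4020 in DMSO, against 1403 and 1533 in AP, also without overlap (1.14, SE 0.52, unadjusted p = 0.0413, adjusted p = 0.727). The ARID1A sgRNA with the least change, epikol_v2_324, had 1084, 372 and 642 in DMSO, against 521 and 644 in AP, and the groups overlapped (0.14). In linear terms the change of ARID1A sgRNAs ran from 1.10-fold to 3.36-fold.

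ARID1B, the paralogue that takes the place of ARID1A in BAF, stood at 9.80, 9.99 and 9.20 in DMSO libraries, against 8.93 and 9.14 in AP libraries. The groups did not overlap, as in 29.3% of all genes in the higher direction, but DMSO 3 lay near AP 3. The log2 fold change was 0.63, SE 0.24, SD between libraries 0.35, adjusted p = 0.17 by limma. Of its sgRNAs, 9 of 10 were higher, against 56.5% of all targeting sgRNAs. The RRA enrichment p was 0.025, adjusted p = 0.463, so ARID1B did not pass either test. Its sgRNA epikol_v2_337 had 863, 670.5 and 867 normalized counts in DMSO, against 206 and 393 in AP (1.48, SE 0.63, unadjusted p = 0.0307, adjusted p = 0.727), while epikol_v2_334 went the other way (1456, 458 and 307 in DMSO, against 939 and 914 in AP, -0.65). ARID2, the ARID subunit of PBAF, stood at 8.57, 9.07 and 8.08 in DMSO libraries, against 8.76 and 8.89 in AP libraries, and overlapped. Its log2 fold change was -0.26, SE 0.26, SD between libraries 0.41, adjusted p = 0.577, with 4 of 10 sgRNAs higher and an RRA depletion p of 0.0412, adjusted p = 0.364. The ARID2 value had the opposite sign from those of ARID1A and ARID1B, and its sign turned with the median over sgRNAs (0.04).

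Of the ATPases, SMARCA2, known as BRM, stood at 10.04, 10.40 and 9.69 in DMSO libraries, against 9.49 and 9.57 in AP libraries. All DMSO values lay above both AP values, as in 29.3% of all genes, though DMSO 3 only by little. The log2 fold change of 0.51, SE 0.23, SD between libraries 0.29, adjusted p = 0.21 did not pass by limma. SMARCA4, known as BRG1 and the ATPase on which many cells depend, stood at 8.55, 9.22 and 9.46 in DMSO libraries, against 8.64 and 8.79 in AP libraries. DMSO 1 lay below the AP libraries and the other two above, and the log2 fold change was 0.36, SE 0.25, SD between libraries 0.39, adjusted p = 0.41. Each ATPase had 8 of 10 sgRNAs higher in DMSO than in AP cells, where 56.5% of all targeting sgRNAs were higher.

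ACTL6A, an actin-related protein that SWI/SNF shares with the INO80 and TIP60 complexes, had the lowest log2 fold change of the 22 genes. It stood at 7.66, 7.72 and 7.74 in DMSO libraries, against 8.24 and 8.21 in AP libraries. The groups did not overlap, as in 14.1% of all genes in the lower direction and 29.3% in the higher. The log2 fold change was -0.52, SE 0.23, SD between libraries 0.04, adjusted p = 0.196 by limma, and the RRA depletion p was 0.0171, adjusted p = 0.228. Its sgRNA epikol_v2_55 had 14.9, 52.1 and 22.2 normalized counts in DMSO, against 103 and 90.2 in AP (-1.85, SE 0.77, unadjusted p = 0.027, adjusted p = 0.727). The counts of epikol_v2_52 were 67.2, 105 and 84 in DMSO, against 289 and 258 in AP (-1.69, SE 0.67, unadjusted p = 0.0217, adjusted p = 0.727). Those of epikol_v2_58 were 195, 169.7 and 106 in DMSO, against 799 and 247 in AP (-1.54, SE 0.70, unadjusted p = 0.0425, adjusted p = 0.727). All 3 were lower in every DMSO library than in either AP library. They were named for their unadjusted limma p in this comparison, so this separation adds no support. The sgRNA named as most opposite, epikol_v2_53, was higher in all (432, 1612 and 392 in DMSO, against 264 and 376 in AP, 1.04). The paralogue ACTL6B, which replaces ACTL6A in neurons, stood at 8.44, 8.72 and 8.76 in DMSO libraries, against 8.38 and 8.31 in AP libraries, a log2 fold change of 0.29, SE 0.22, SD between libraries 0.14, adjusted p = 0.45.

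In the core, no gene passed, and the 7 log2 fold changes ran from -0.27 for SMARCD1 to 0.39 for SMARCD3, paralogues that link the complex to transcription factors. SMARCC2, a scaffold subunit, stood at 9.37, 9.32 and 9.07 in DMSO libraries, against 8.98 and 8.99 in AP libraries, a log2 fold change of 0.26, SE 0.21, SD between libraries 0.13, adjusted p = 0.475. Its paralogue SMARCC1 stood at 8.29, 8.25 and 8.84 in DMSO libraries, against 8.06 and 8.47 in AP libraries, and overlapped (0.19). SMARCB1 held the sgRNA with the highest log2 fold change of the 220, epikol_v2_5782, with 156, 503 and 136 normalized counts in DMSO, against 26.4 and 70.1 in AP (2.33, SE 0.77, unadjusted p = 0.00746, adjusted p = 0.727). SMARCE1, an HMG-box subunit, held the sgRNA with the lowest, epikol_v2_5844, with 213, 295 and 182 in DMSO, against 1346 and 647 in AP (-2.05, SE 0.65, unadjusted p = 0.00562, adjusted p = 0.727). The gene means gave log2 fold changes of 0.08 for SMARCB1 and -0.04 for SMARCE1. Another SMARCE1 sgRNA, epikol_v2_5845, chosen after its values were seen, had 2335, 3349 and 624 in DMSO, against 484 and 711 in AP (1.53).

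The subunits found only in PBAF did not pass. PHF10, a PHD-finger protein, stood at 9.85, 10.06 and 9.61 in DMSO libraries, against 9.71 and 9.42 in AP libraries (0.28, adjusted p = 0.466 by limma). PBRM1, a multi-bromodomain protein mutated in clear cell renal cancer, stood at 9.14, 9.00 and 8.49 in DMSO libraries, against 9.20 and 8.65 in AP libraries (-0.04, adjusted p = 0.931). BRD7, a bromodomain protein, stood at 8.13, 7.99 and 8.01 in DMSO libraries, against 8.05 and 8.12 in AP libraries (-0.04, adjusted p = 0.928). In all 3 the groups overlapped, and the 95% interval of PBRM1, -0.56 to 0.47, left room for changes of either sign. DPF1, DPF2 and DPF3, which read modified histone tails, gave 0.09, 0.30 and -0.15, and BRD9 of the non-canonical complex and SS18L1, a neuronal BAF subunit, gave -0.15 and 0.12.

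Taxol cells were compared with DMSO cells to see whether loss of a SWI/SNF subunit altered growth under the drug. No SWI/SNF gene passed: limma called 0 of the 22 at an adjusted p under 0.05, where it called 0.128% of all genes higher and 0% lower, and 0 of the 22 at an unadjusted p under 0.05, where the background was 4.62% higher and 1.54% lower. RRA also called 0 of the 22 at an adjusted p (0.257% of all genes depleted, 0.128% enriched), and at an unadjusted p it gave ARID1A as depleted, against 4.75% of genes, and ACTL6B as enriched, against 6.55%. The log2 fold changes of the 22 ran from -0.45 for ARID1A to 0.47 for ACTL6B, and 14 of 22 were below 0, against 44.9% of all genes. Single libraries set both ends: ARID1A was -0.20 without Taxol 2, when DPF1 was lowest (-0.42), and ACTL6B was 0.02 without Taxol 1, when SMARCD1 was highest (0.20). With 3 libraries a side, an exact permutation test of a single gene could not give a two-sided p under 0.1.

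ARID1A stood at 9.65, 9.00 and 9.84 in Taxol 1 to 3, against 9.98, 9.73 and 10.12 in DMSO 1 to 3. Taxol 2 was lowest, Taxol 3 lay above DMSO 2, and the log2 fold change was -0.45, SE 0.28, SD between libraries 0.34, adjusted p = 0.855 by limma. Its RRA depletion p was 0.0182, adjusted p = 0.82, although 4 of its 10 sgRNAs were higher in Taxol. The sgRNA with the lowest log2 fold change of the 220 was epikol_v2_323, with 494, 672 and 1408 normalized counts in Taxol libraries, against 3034, 3402 and 2692 in DMSO libraries. Every Taxol value lay below every DMSO value (-1.96, SE 0.65, unadjusted p = 0.00961, adjusted p = 0.967). Against this stood epikol_v2_327, named after its values were seen, with 14719, 848 and 612 in Taxol, against 1352, 921 and 1235 in DMSO (0.77). In Taxol 1 it held 63.5% of all ARID1A counts, and in Taxol 3 epikol_v2_329 held 54.0%, with 10520 counts. The DMSO libraries enter both this comparison and that with AP, so the 0.89 of DMSO against AP and the -0.45 of Taxol against DMSO are not independent values.

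ARID1B stood at 9.67, 9.17 and 8.72 in Taxol libraries, against 9.38, 9.47 and 8.77 in DMSO libraries, a log2 fold change of -0.02, SE 0.26, SD between libraries 0.43, adjusted p = 0.994. ARID2 stood at 7.80, 8.06 and 7.96 in Taxol libraries, against 8.15, 8.56 and 7.65 in DMSO libraries, a log2 fold change of -0.18, SE 0.23, SD between libraries 0.33, adjusted p = 0.909. Both overlapped, with the lowest of the 6 ARID2 values in DMSO 3 and the highest in DMSO 2, without which ARID2 had 0.041. Without DMSO 1, DMSO 2 or Taxol 3, ARID1B had 0.064, 0.11 or 0.21. SMARCA4 stood at 8.06, 8.06 and 8.46 in Taxol libraries, against 8.13, 8.71 and 9.03 in DMSO libraries. DMSO 1 lay among the Taxol values and the other DMSO libraries above them, and the log2 fold change was -0.43, SE 0.23, SD between libraries 0.36, adjusted p = 0.839. SMARCA2 stood at 9.93, 9.63 and 9.76 in Taxol libraries, against 9.62, 9.89 and 9.26 in DMSO libraries, a log2 fold change of 0.19, SE 0.27, SD between libraries 0.25, adjusted p = 0.909, whose sign turned with the median over sgRNAs (-0.22).

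ACTL6B, the highest of the 22, stood at 9.55, 8.19 and 8.23 in Taxol libraries, against 8.02, 8.21 and 8.33 in DMSO libraries. Only Taxol 1 was high, the other Taxol libraries lay within the DMSO range, and the log2 fold change was 0.47, SE 0.26, SD between libraries 0.56, adjusted p = 0.839. Without Taxol 1 it was 0.02. Its RRA enrichment p was 0.0148, adjusted p = 0.519. The sgRNA with the highest log2 fold change of the 220, epikol_v2_66 against ACTL6B, had 3153, 197 and 645 normalized counts in Taxol, against 325, 122 and 99 in DMSO (2.22, SE 0.88, unadjusted p = 0.0252, adjusted p = 0.967). Taxol 1 and Taxol 3 lay above DMSO, and Taxol 2 among the DMSO values. ACTL6A stood at 7.03, 7.51 and 7.16 in Taxol libraries, against 7.25, 7.21 and 7.31 in DMSO libraries, a log2 fold change of -0.02 with a 95% interval of -0.46 to 0.42.

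SMARCC2 was the only SWI/SNF gene whose Taxol and DMSO libraries did not overlap, at 8.30, 8.62 and 8.62 in Taxol libraries, against 8.95, 8.80 and 8.64 in DMSO libraries, where 4.49% of all genes lay lower and 6.29% higher without overlap. Taxol 3 and DMSO 3 nearly touched, and the log2 fold change was -0.28, SE 0.22, SD between libraries 0.17, adjusted p = 0.883. Its sgRNA epikol_v2_5802, named after its values were seen, had 719, 1579 and 47222 normalized counts in Taxol libraries, against 645, 1334 and 3088 in DMSO libraries. In Taxol 3 it made up 94.8% of the SMARCC2 counts, and SMARCC2 took 0.834% of that library. SMARCC1 stood at 7.59, 8.02 and 7.82 in Taxol libraries, against 7.87, 7.74 and 8.42 in DMSO libraries (-0.20). The other core genes ran from -0.20 for SMARCE1 to 0.39 for SMARCD1, which came nearest to the threshold among the core with an adjusted p of 0.839 by limma.

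PHF10 stood at 10.14, 9.30 and 9.34 in Taxol libraries, against 9.43, 9.54 and 9.19 in DMSO libraries (0.21, adjusted p = 0.909 by limma). Taxol 1 was its highest value, and without Taxol 1 the log2 fold change was -0.064. PBRM1 stood at 8.54, 8.13 and 7.88 in Taxol libraries, against 8.73, 8.49 and 8.07 in DMSO libraries (-0.25, adjusted p = 0.909). BRD7 stood at 7.27, 7.69 and 7.28 in Taxol libraries, against 7.71, 7.47 and 7.59 in DMSO libraries (-0.18, adjusted p = 0.909). The groups overlapped in all 3 of these PBAF genes. DPF1 and DPF2 had log2 fold changes of -0.36 and -0.33 and DPF3 one of 0.07, while BRD9 and SS18L1 had -0.12 and 0.06.

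The labels do not state that replicate numbers pair Taxol with DMSO libraries. Such pairs were assumed, from weak correlations of libraries with the same number, and the difference was also read pair by pair. ARID1A was lower in Taxol in all 3 pairs, by log2 differences of -0.33, -0.73 and -0.28. SMARCA4 (-0.08, -0.65 and -0.57), SMARCC2 (-0.64, -0.18 and -0.02), DPF1 (-0.27, -0.81 and -0.01) and PBRM1 (-0.19, -0.36 and -0.19) were lower in all 3 pairs too. SMARCD1 was the only one higher in all 3, by 0.38, 0.35 and 0.44. So 5 of the 22 genes were lower in every pair, against 11.7% of all genes, and 1 was higher in every pair, against 16.9%. In a fit with the pair as a block, ACTL6B (unadjusted p = 0.0271) and SMARCA4 (unadjusted p = 0.0415) had the lowest p of the 22 by limma, with adjusted p of 0.555 and 0.584. The pair differences of ACTL6B were 1.53, -0.02 and -0.10, so it was higher in pair 1 only.

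Taxol cells were set against AP cells to see which sgRNAs were lost or gained over the whole culture with the drug. The AP libraries also enter the comparison with DMSO, and the Taxol libraries that with DMSO. By limma 0 of the 22 genes were called at an adjusted p under 0.05, where 0.128% of all genes were called higher and 0% lower. At an unadjusted p under 0.05, 3 genes were higher (ARID1B, SMARCA2 and ACTL6B), against 16.9% of all genes, and ACTL6A was lower, against 6.29%. RRA called 0 of the 22 (4.62% of all genes depleted and 1.41% enriched), and at an unadjusted p it gave ARID2 and SMARCC2 as depleted, against 13.1% of genes, and ACTL6B as enriched, against 8.34%. This count differed with the scale: with each library centred on the non-targeting sgRNAs, 6 of the 22 genes fell and 0 rose by limma, where 150 of 779 genes fell and 4 rose.

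ARID1B stood at 9.78, 9.28 and 8.84 in Taxol libraries, against 8.54 and 8.76 in AP libraries. Every Taxol value was above both AP values, as in 32.3% of all genes, Taxol 3 by the least. The log2 fold change was 0.65, SE 0.26, SD between libraries 0.39, adjusted p = 0.171 by limma. The sgRNA with the highest log2 fold change of the 220 was its epikol_v2_337, with 2484, 733 and 879 normalized counts in Taxol, against 157 and 301 in AP (2.42, SE 0.68, unadjusted p = 0.00643, adjusted p = 0.737). ARID1A stood at 9.76, 9.11 and 9.96 in Taxol libraries, against 9.10 and 9.15 in AP libraries. Taxol 2 lay between the AP values, and the log2 fold change was 0.49, SE 0.27, SD between libraries 0.36, adjusted p = 0.268, with a sign that turned when libraries were centred on the non-targeting sgRNAs (-0.04). ARID2 stood at 7.91, 8.17 and 8.09 in Taxol libraries, against 8.37 and 8.51 in AP libraries. No Taxol value reached an AP value, as in 14.5% of all genes, and the log2 fold change was -0.39, SE 0.20, SD between libraries 0.12, adjusted p = 0.249, with an RRA depletion p of 0.0454, adjusted p = 0.361. Centred on the non-targeting sgRNAs, ARID2 fell by 0.91 (limma adjusted p = 0.0147).

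SMARCA2 stood at 10.04, 9.74 and 9.88 in Taxol libraries, against 9.10 and 9.19 in AP libraries. The groups did not overlap, as in 32.3% of all genes in the higher direction, and the log2 fold change was 0.74, SE 0.24, SD between libraries 0.13, adjusted p = 0.121. SMARCA4 stood at 8.17, 8.17 and 8.58 in Taxol libraries, against 8.25 and 8.41 in AP libraries, and its log2 fold change of -0.02 had a 95% interval of -0.48 to 0.44. ACTL6B stood at 9.66, 8.30 and 8.35 in Taxol libraries, against 7.99 and 7.93 in AP libraries. Taxol 1 stood far above the rest, and the log2 fold change was 0.81, SE 0.33, SD between libraries 0.63, adjusted p = 0.177 by limma, with an RRA enrichment p of 0.0115, adjusted p = 0.32. Without Taxol 1 it was 0.36 (limma adjusted p = 0.264). No single ACTL6B sgRNA reached an unadjusted p under 0.05, and the one with the lowest log2 fold change, epikol_v2_68, had 219.7, 401 and 412 normalized counts in Taxol, against 379 and 405 in AP (-0.24).

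ACTL6A stood at 7.14, 7.62 and 7.28 in Taxol libraries, against 7.86 and 7.83 in AP libraries. The groups did not overlap, as in 14.5% of all genes in the lower direction. The log2 fold change was -0.49, SE 0.21, SD between libraries 0.20, adjusted p = 0.195 by limma. Centred on the non-targeting sgRNAs it fell by 1.02, with an adjusted p of 0.00442, the lowest of the 6 genes called there, the others being ARID2, PBRM1, BRD9, DPF1 and SMARCD2. SMARCC2 stood at 8.41, 8.73 and 8.74 in Taxol libraries, against 8.59 and 8.61 in AP libraries, a log2 fold change of 0.03 beside an RRA depletion p of 0.0133, adjusted p = 0.17. Its sgRNAs went both ways: epikol_v2_5806 had the lowest log2 fold change of the 220, with 85.9, 105 and 91 normalized counts in Taxol, against 421 and 434 in AP (-2.18, SE 0.45, unadjusted p = 9.2e-04, adjusted p = 0.737). The abundant epikol_v2_5802 had 777, 1705 and 51411 in Taxol, against 744 and 999 in AP (2.24). SMARCC1 stood at 7.70, 8.13 and 7.94 in Taxol libraries, against 7.67 and 8.09 in AP libraries (0.04).

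PHF10 stood at 10.25, 9.41 and 9.47 in Taxol libraries, against 9.32 and 9.03 in AP libraries (0.53, adjusted p = 0.253 by limma). PBRM1 stood at 8.65, 8.24 and 8.00 in Taxol libraries, against 8.81 and 8.26 in AP libraries (-0.24, adjusted p = 0.528). BRD7 stood at 7.38, 7.80 and 7.40 in Taxol libraries, against 7.66 and 7.74 in AP libraries (-0.17, adjusted p = 0.606). PHF10 alone of these did not overlap, as in 32.3% of all genes in the higher direction. Taxol 1 was highest, and without Taxol 1 the log2 fold change of PHF10 was 0.26. That of PBRM1 was 0.031 without AP 1. DPF1 lay lower without overlap (-0.23), as 14.5% of all genes did. DPF2 and DPF3 gave 0.02 and -0.04, and BRD9 and SS18L1 gave -0.23 and 0.22. Among the remaining core genes, SMARCD3 had 0.61, which was 0.16 without Taxol 1, SMARCD1 0.17, SMARCB1 0.15, SMARCE1 -0.19 and SMARCD2 -0.21.

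By class, the ARID subunits and ATPases had the highest medians in the comparisons with AP. The median log2 fold change of the ARID class was -0.18 in Taxol against DMSO, 0.63 in DMSO against AP and 0.49 in Taxol against AP, with ARID2 below 0 in all 3. In Taxol against DMSO it was 0.041 without DMSO 2 and -0.58 with the median over sgRNAs. The ATPases gave -0.12, 0.44 and 0.36 in the same order, and -0.35 in Taxol against DMSO with the median over sgRNAs. The 2 ATPases differed in sign outside DMSO against AP: SMARCA4 had -0.43, 0.36 and -0.02 and SMARCA2 0.19, 0.51 and 0.74. Beside these class medians, the median of all 779 genes was 0.03, 0.15 and 0.20. The core gave -0.11, 0.08 and 0.04, and the 3 subunits found only in PBAF gave -0.18, -0.04 and -0.17. The DPF class gave -0.33, which was -0.082 without Taxol 1, 0.09 and -0.04, and the 4 others 0.02, -0.02 and -0.01. The core, PBAF-specific, DPF and other classes all lay below the median of all genes in each comparison. In Taxol against DMSO the ARID and ATPase classes lay below it too. Of the 22 genes, 7, 10 and 7 lay above the median of all genes, against 49.9% of all genes in each comparison. Classes of 2 to 7 genes were described without a test, and centring on the non-targeting sgRNAs turned the signs of the DMSO against AP medians of the core and DPF classes (-0.23 and -0.22) and of the Taxol against AP medians of the ARID, ATPase and core classes (-0.04, -0.17 and -0.49).

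Read by library, as the mean of the class minus the median gene of that library, the ARID class stood at 0.23, 0.10 and 0.13 in Taxol 1 to 3, against 0.51, 0.50 and 0.21 in DMSO 1 to 3, and at 0.04 and 0.12 in AP 1 and AP 3. The DMSO libraries all lay above the AP libraries. Taxol 2 lay between AP 1 and AP 3, and Taxol 1 lay above DMSO 3. The ATPases stood at 0.19, 0.20 and 0.40 in Taxol, 0.21, 0.55 and 0.51 in DMSO and 0.04 and 0.11 in AP libraries, with both AP libraries below all others. The DPF class stood at -0.89, -0.71 and -0.52 in Taxol, -0.38, -0.57 and -0.43 in DMSO and -0.43 and -0.46 in AP libraries, so Taxol 3 overlapped DMSO 2. All 22 genes together stood at -0.29, -0.33 and -0.37 in Taxol, -0.21, -0.25 and -0.20 in DMSO and -0.23 and -0.29 in AP libraries.

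Single sgRNAs did not pass in any comparison: limma called 0 of the 220 at an adjusted p under 0.05, and 0% of all 7775 targeting sgRNAs. At an unadjusted p under 0.05, 5 SWI/SNF sgRNAs were higher and 3 lower in Taxol against DMSO, where 2.01% and 1.57% of all targeting sgRNAs were. In DMSO against AP 9 were higher and 9 lower, against 3.22% and 3.67%, and in Taxol against AP 3 were higher and 8 lower, against 2.24% and 3.92%. The share of sgRNAs below the central 95% of the non-targeting sgRNAs was 5.0% of the SWI/SNF sgRNAs in Taxol against DMSO, against 5.16% of all targeting sgRNAs, 8.64% against 8.95% in DMSO against AP, and 24.1% against 20.9% in Taxol against AP. Above that range lay 2.73%, 4.09% and 2.27% of them, against 3.18%, 1.75% and 2.12% of all. An sgRNA held over 50% of the counts of its gene in 6 of 66 pairs of a SWI/SNF gene and a library in Taxol, in 2 of 66 in DMSO and in 0 of 44 in AP. The median share was 27.0%, 27.4% and 20.6% in the same order. These shares were not computed for all genes, so they do not set SWI/SNF genes apart from the rest of the library.

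Lists of related genes in the same library gave a frame for these values. Of 12 other ARID-domain proteins 7 were measured, and in DMSO against AP all 7 lay above 0 with a median of 0.52, against 63.3% of all genes above 0. Of the 7, 5 were at an unadjusted limma p under 0.05, against 12.5% of all genes, and 0 were called by limma or RRA. In Taxol against AP their median was 0.45, with 7 of 7 above 0, against 67.7% of all genes, and 1 enriched by RRA (ARID4A), against 1.41%, and in Taxol against DMSO it was 0.08. The 26 measured of 28 other SNF2-family ATPases had medians of 0.03 in Taxol against DMSO, 0.09 in DMSO against AP and 0.31 in Taxol against AP, with 0 called by limma and 1 enriched by RRA (CHD1), in Taxol against AP. The 11 measured of 14 PRC2 subunits, which oppose SWI/SNF at some genes, had medians of -0.19, 0.17 and 0.27 in the same order. RRA called 3 of them depleted in Taxol against AP (EED, RBBP4 and RBBP7), against 4.62% of all genes. In that comparison 8 of the 11 lay above 0, against 67.7% of all genes. Of 11 further SWI/SNF subunits only ACTB was measured, at 0.33, -0.61 and -0.24.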

How the data were processed

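The 8 libraries are amplicons of genomic DNA in which sgRNAs were counted. The authors' deposited sgRNA tables, made with MAGeCK 0.5.8 per the submitters' processing notes, hold normalized counts, 1 table per comparison, joined in a cell per group (other values, no raw counts). How reads were mapped: not given in the sources used here. Authors' fold changes, p-values and gene tables were not used. AP cells hold 3 values while the labels name AP 1 and AP 3: values 1 and 3 were taken, the order in a cell being assumed to follow the replicate numbers, and 2 value columns were left unused. Of 7856 rows, 1 named no gene and was dropped. Values were whole multiples of a step, which gave reads (100% of values under 1000 within 0.1 read); tests used the deposited values.

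Log2(normalized count + 1) was tested without covariates with limma 3.58.1 (lmFit, eBayes with trend; R 4.3.3), per sgRNA and per gene mean (779 genes with at least 3 sgRNAs, 775 of them with 10), two-sided, with Benjamini-Hochberg adjustment over all genes or sgRNAs. RRA ranked sgRNAs by the moderated statistic within the outer 25%, with exact one-sided p-values from uniform order statistics, adjusted within each direction. Scripts were tested on simulated data. SD is the residual SD over libraries from the fit. In Taxol against DMSO, libraries with the same replicate number deviated together weakly (correlations 0.17, 0.13 and 0.21, against -0.14 to -0.05 for other numbers). The numbers were therefore taken as pairs, which the labels do not state. Deviations were taken from group means, so values for other numbers had to fall where those for the same number rose. Alternatives were another pseudocount, a floor on counts, centring on non-targeting or all sgRNAs, the median over sgRNAs, another RRA limit, the replicate block, each library left out and, added later, the most abundant sgRNA of each gene left out. Values per library were given for the ARID, ATPase and PBAF-specific genes, for genes at an unadjusted p under 0.05 by limma or RRA in any comparison and for their closest paralogues. Single sgRNAs were named for genes at that p by both tests (those at an unadjusted limma p under 0.05, and the one with the most opposite change) and for the highest and lowest log2 fold change in each comparison. Members, classes and lists were chosen with earlier results of these data known. The sgRNA sequences and target positions were not used here.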

Additional observations from a re-analysis of the deposited data

How the results depend on the processing

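Of the 462 gene log2 fold changes recomputed under the alternatives that keep all libraries, 408 kept their sign and their side of an adjusted p of 0.05, as did 307 of 352 with 1 library left out. Part of this agreement was fixed in advance. The other pseudocount and the floor left values nearly unchanged, and in Taxol against DMSO the block cannot alter a fold change. With few of the 22 genes called under any setting, most could hardly change side. The result that passed, ARID1A in DMSO against AP, gave 0 called genes with the non-targeting centring, with the median over sgRNAs and without the most abundant sgRNA, and 0 to 1 without 1 library at a time; the cause was not tested. RRA called 0 of the 22 genes there with all libraries and 0 to 1 without 1 library, the 1 being without DMSO 2. With the non-targeting centring limma called 6 of the 22 genes in Taxol against AP, and the median of all genes became -0.14, -0.16 and -0.33 in Taxol against DMSO, DMSO against AP and Taxol against AP. Centring on all sgRNAs left it at 0.09, 0.11 and 0.18, and neither a pseudocount of 5, nor a floor of 30 mean normalized counts, nor an RRA limit of 10% of ranks in place of 25% changed a count of called SWI/SNF genes. The replicate block, which pairs libraries by number, called 0 of the 22 genes in Taxol against DMSO, ARID1A (0.96, limma adjusted p = 1.0e-04) in DMSO against AP together with 1 of the 220 sgRNAs, epikol_v2_5805 against SMARCC2 (limma adjusted p = 0.0442, where 0.232% of all targeting sgRNAs were called), and 1 gene, ACTL6B (1.04, limma adjusted p = 0.0223), in Taxol against AP. In both comparisons with AP only 2 pairs share numbers and their deviations were nearly uncorrelated (-0.02 to 0.04), and the blocked fold changes equal those without DMSO 2 or Taxol 2, since the block takes up the library that has no partner. With no block, epikol_v2_5805 had a limma adjusted p of 0.486 without DMSO 2 and ACTL6B one of 0.103 without Taxol 2. Over all 779 genes the block called 2 higher and 1 lower in Taxol against DMSO (1 and 0 without it), 24 and 43 in DMSO against AP (6 and 11) and 48 and 16 in Taxol against AP (1 and 0). The median over sgRNAs called 3 and 3 in DMSO against AP and 3 and 2 in Taxol against AP, and leaving out the most abundant sgRNA gave 10 and 1 in Taxol against AP.

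With each library centred on the non-targeting sgRNAs, in Taxol against DMSO class medians moved to -0.28 for the core class and -0.50 for the DPF class and the sign turned for SMARCB1 (-0.15), DPF3 (-0.10) and SS18L1 (-0.11). In DMSO against AP class medians moved to 0.32 for the ARID class, 0.13 for the ATPase class, -0.23 for the core class, -0.33 for the other class, -0.22 for the DPF class and -0.35 for the PBAF-specific class and the sign turned for SMARCB1 (-0.23), SMARCC1 (-0.12), SMARCC2 (-0.044), ACTL6B (-0.017), DPF1 (-0.22), DPF2 (-0.010), PHF10 (-0.031) and SS18L1 (-0.19). In Taxol against AP class medians moved to -0.038 for the ARID class, -0.17 for the ATPase class, -0.49 for the core class, -0.53 for the other class, -0.57 for the DPF class and -0.69 for the PBAF-specific class and the sign turned for ARID1A (-0.038), SMARCB1 (-0.38), SMARCC1 (-0.49), SMARCC2 (-0.50), SMARCD1 (-0.36), DPF2 (-0.51) and SS18L1 (-0.31). With each library centred on the median of all sgRNAs, in Taxol against DMSO the sign turned for ARID1B (0.041) and ACTL6A (0.042). In DMSO against AP class medians moved to 0.053 for the DPF class. In Taxol against AP the sign turned for DPF2 (-0.0054). With the median over the sgRNAs of a gene in place of the mean, in Taxol against DMSO class medians moved to -0.58 for the ARID class and -0.35 for the ATPase class and the sign turned for ARID1B (0.046), SMARCA2 (-0.22), SMARCB1 (-0.059), SMARCD2 (0.021), ACTL6A (0.093) and DPF3 (-0.040). In DMSO against AP class medians moved to 0.36 for the ARID class, -0.022 for the core class, 0.18 for the DPF class and 0.15 for the PBAF-specific class and the sign turned for ARID2 (0.043), SMARCB1 (-0.17) and BRD7 (0.15). In Taxol against AP class medians moved to 0.13 for the ARID class, 0.17 for the ATPase class and -0.18 for the core class and the sign turned for SMARCB1 (-0.19), SMARCC1 (-0.10), SMARCC2 (-0.23) and DPF2 (-0.033). With a replicate block, in DMSO against AP the sign turned for DPF1 (-0.21), DPF3 (0.095) and SS18L1 (-0.090). In Taxol against AP class medians moved to 0.66 for the ARID class and the sign turned for SMARCA4 (0.046), SMARCC1 (-0.061), SMARCC2 (-0.021) and DPF3 (0.059). With the most abundant sgRNA of each gene left out, an alternative chosen after seeing the data, in DMSO against AP class medians moved to 0.0036 for the DPF class. In Taxol against AP class medians moved to -0.051 for the core class and the sign turned for SMARCC1 (-0.051), SMARCC2 (-0.22) and DPF2 (-0.15). Without 1 library at a time, in Taxol against DMSO the value ran from -0.26 to 0.21 for ARID1B, -0.41 to 0.041 for ARID2, -0.24 to 0.30 for SMARCB1, -0.33 to 0.0064 for SMARCC1, -0.28 to 0.41 for SMARCD3, -0.16 to 0.080 for ACTL6A, -0.21 to 0.28 for DPF3, -0.064 to 0.35 for PHF10, -0.14 to 0.23 for SS18L1. Class medians there ran from -0.36 to 0.041 for the ARID class, -0.21 to 0.0064 for the core class, -0.32 to -0.082 for the DPF class. Without 1 library at a time, in DMSO against AP the value ran from -0.20 to 0.36 for SMARCB1, -0.013 to 0.40 for SMARCC1, -0.12 to 0.034 for SMARCE1, -0.21 to 0.34 for DPF1, -0.35 to 0.095 for DPF3, -0.32 to 0.23 for PBRM1, -0.36 to 0.058 for BRD9, -0.090 to 0.24 for SS18L1. Class medians there ran from -0.056 to 0.27 for the core class, 0.0029 to 0.31 for the DPF class, -0.083 to 0.23 for the PBAF-specific class. Without 1 library at a time, in Taxol against AP the value ran from -0.16 to 0.058 for SMARCA4, -0.13 to 0.42 for SMARCB1, -0.17 to 0.25 for SMARCC1, -0.028 to 0.14 for SMARCC2, -0.020 to 0.31 for SMARCD1, -0.30 to 0.26 for DPF2, -0.13 to 0.059 for DPF3, -0.51 to 0.031 for PBRM1. Class medians there ran from 0.31 to 0.66 for the ARID class, -0.11 to 0.14 for the core class, -0.17 to 0.059 for the DPF class. Depth limited the rarest sgRNAs: the lowest SWI/SNF sgRNA had 7 reads, in Taxol 3, and Taxol 2 and Taxol 3 had a median of 142 and 146 reads for the SWI/SNF sgRNAs.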
